A study of Mus musculus with 6 samples.

Results

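DUSP, Sprouty and Spred genes encode the proteins that switch off the mitogen-activated protein (MAP) kinases after a cell has been stimulated. The 10 genes described here are 6 dual-specificity phosphatases (Dusp1, Dusp2, Dusp4, Dusp5, Dusp6 and Dusp10), 2 Sprouty genes (Spry1 and Spry2) and 2 Spred genes (Spred1 and Spred2), taken by gene name from the 57180 genes of the expression table. They were measured by RNA sequencing in lymphocytes that had entered Hepa1-6 tumors, which grow from a mouse liver cancer line implanted into mice. The hosts had received plasmids for CasRx, a CRISPR enzyme directed at RNA, by tail vein injection in the TREND delivery system. In 3 libraries the guide was directed at SLC43A2, an amino acid transporter (SLC43A2 sgRNA, genotype label SLC43A2 knockdown), and in the other 3 it was a mock guide (Mock sgRNA, genotype label Mock). The carrier, the enzyme and the route were therefore common to both groups. The labels do not state the strain, sex and age of the mice or whether a library held more than 1 mouse.

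In T cells, antigen receptor and cytokine signals activate Ras and then the kinases ERK, JNK and p38, and these kinases in turn raise transcription of their own inhibitors. DUSP phosphatases remove the activating phosphates from the threonine and tyrosine of the kinase, each with its own preference for ERK, JNK or p38 and its own place in nucleus or cytoplasm. Sprouty and Spred proteins act further upstream, between the receptor and Raf. Their transcripts are widely read as a trace of recent MAP kinase activity, although several respond to other signals as well.

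The stretch of 250 bases before the RefSeq start of the gene (GRCm38.p6) is shown for 4 members. Dusp5, Spry1 and Dusp2 were higher in SLC43A2 sgRNA libraries, and Dusp1 is shown beside them as the abundant member with nearly equal levels. Each is written 5′ to 3′ on the gene's strand, and capitals mark matches, on either strand, to the 10 motifs kept from the search described after the sequences.
Dusp5, chr19:53528895-53529144, plus strand: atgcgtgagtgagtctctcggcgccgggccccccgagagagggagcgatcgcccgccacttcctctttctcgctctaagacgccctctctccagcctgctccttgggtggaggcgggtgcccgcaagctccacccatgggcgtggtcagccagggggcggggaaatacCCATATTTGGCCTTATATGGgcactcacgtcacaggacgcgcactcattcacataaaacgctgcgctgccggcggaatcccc
Spry1, chr3:37639697-37639946, plus strand: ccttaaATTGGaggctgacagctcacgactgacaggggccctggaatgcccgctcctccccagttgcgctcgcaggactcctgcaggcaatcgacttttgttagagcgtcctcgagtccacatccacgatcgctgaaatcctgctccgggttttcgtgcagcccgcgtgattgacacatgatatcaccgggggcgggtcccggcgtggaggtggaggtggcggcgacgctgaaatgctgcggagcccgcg
Dusp2, chr2:127335909-127336158, plus strand: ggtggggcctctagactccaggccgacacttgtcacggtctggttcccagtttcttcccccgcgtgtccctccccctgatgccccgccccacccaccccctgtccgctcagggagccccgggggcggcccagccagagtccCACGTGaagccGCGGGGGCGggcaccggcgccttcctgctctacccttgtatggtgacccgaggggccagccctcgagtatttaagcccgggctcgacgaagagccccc
Dusp1, chr17:26508473-26508722, minus strand: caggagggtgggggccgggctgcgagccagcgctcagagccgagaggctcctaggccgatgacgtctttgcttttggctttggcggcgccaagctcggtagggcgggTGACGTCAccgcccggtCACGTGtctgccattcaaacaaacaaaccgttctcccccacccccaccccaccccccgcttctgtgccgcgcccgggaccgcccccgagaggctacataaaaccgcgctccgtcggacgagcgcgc

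The 10 motifs were searched on both strands. The cyclic AMP response element was spelled TGACGTCA, and the site of AP-1, the Fos and Jun dimer, TGANTCA. The site of the EGR zinc finger factors was spelled GCGNGGGCG, and the E-box of basic helix-loop-helix factors CACGTG. The ETS site was spelled CCGGAAGT, and the core read by the T cell factor NFAT was spelled GGAAAA. The TATA box of core promoters was spelled TATAAA, while the box bound by the trimeric factor NF-Y is CCAAT. The CArG box of serum response factor and the NF-kB site were searched in their degenerate forms. In Dusp5, 2 CArG boxes lay side by side, from 82 to 73 and from 72 to 63 bases before the start, and 1.47% of the 32851 promoters of the same length held such a box. Dusp1 held the cyclic AMP response element 143 to 136 bases before the start, which 1.55% of all promoters held, and an E-box 126 to 121 bases before it. Dusp2 held an EGR match from 98 to 90 bases (4.70% of all promoters) and an E-box from 109 to 104 bases before the start (6.02% of all promoters). The only match in Spry1 was a CCAAT on the opposite strand, a motif found in 33.8% of all promoters. Among the other members with a promoter in the table, CCAAT was found in Dusp10 and Dusp6 and the NFAT letters in Spred2 and Spry2 (20.4% of all promoters), and Spred1 had no match. No member with a promoter in the table matched AP-1, ETS, NF-kB or TATA, which 6.75%, 2.88%, 7.25% and 12.4% of all promoters held. The set of motifs was not fixed in advance. In all 12 patterns were tried, 11 at first, and 2 of these were taken out after the members' matches had been seen. The half-site TGACG of the cyclic AMP response element, found in Dusp1, Dusp5 and Spred2 and in 17.8% of all promoters, was dropped. A 9-letter NF-kB pattern, found in Dusp2 and Dusp5 and in 7.91% of all promoters, was replaced by the 10-letter form that matched no member. The absence of an NF-kB match thus depends on the pattern chosen, and the matches describe letters in this window, not binding. The table matched 9 of the 10 members by symbol, all but Dusp4.

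The values are TPM, each gene's length-adjusted share of its library, so levels can be compared between genes, while sequencing depth is unknown. A gene was tested if it averaged at least 1 TPM over the 6 libraries, as 13759 genes did. Of these, 45.1% differed at an adjusted p under 0.05, with 22.8% higher and 22.2% lower in SLC43A2 sgRNA. The groups did not overlap for 57.0% of tested genes. The higher share of the called genes was 67.9% after scaling to T cell receptor and CD3 transcripts and 50.6% with TPM as deposited. Slc43a2 itself stood at 3.5, 2.4 and 4.15 TPM in SLC43A2 sgRNA and 6.68, 4.18 and 4.79 TPM in Mock sgRNA libraries, a log2 difference of -0.52 (SE 0.23) that did not pass (limma adjusted p = 0.113). Markers of other cells also differed between the groups. The 11 listed T cell markers summed to 8285 to 8913 TPM in SLC43A2 sgRNA and 9492 to 10783 TPM in Mock sgRNA. Of the B cell markers all 8 tested of 9 listed fell, with sums of 24.1 to 25.1 TPM in SLC43A2 sgRNA and 306.5 to 399.9 TPM in Mock sgRNA. Of the macrophage and monocyte markers 8 of 9 fell (sums of 61.3 to 64.7 TPM in SLC43A2 sgRNA and 516.5 to 596.9 TPM in Mock sgRNA), and 7 of 7 tested of 8 listed neutrophil markers and 6 of 6 NK cell markers fell as well. Plasma cell markers fell in 5 of 6 (582.2 to 709.0 TPM in SLC43A2 sgRNA and 19664 to 20509 TPM in Mock sgRNA), erythroid markers in 5 of 5 tested and dendritic cell markers in 2 of 3. Of the hepatocyte markers 1 of 3 tested fell, Trf, while Afp and Apoa2 did not pass and Alb, Ttr and Serpina1a were at 0. The only endothelial marker tested, Pecam1, fell, while Cdh5, Kdr, Tie1 and Emcn were at most 0.07 TPM in any library. Trf or Pecam1 by itself does not show that hepatocytes or endothelium were present. No fibroblast marker reached the level for testing. Of the T cell markers 2 rose and 3 fell. The Y-linked gene Eif2s3y, chosen after its values were seen, averaged 1.03 and 51.4 TPM in SLC43A2 sgRNA and Mock sgRNA libraries. Xist, an RNA of female cells that was also chosen after its values were seen, differed in the other direction. It stood at 11.88, 11.52 and 9.64 TPM in SLC43A2 sgRNA and 5.4, 3.18 and 4.36 TPM in Mock sgRNA. The log2 difference was 1.19 (limma adjusted p = 0.0037). The Mock sgRNA libraries thus held both transcripts, so the groups are not a clean split into female and male cells. Whether a library mixed cells of both sexes was not tested. Sex of the cells and guide therefore cannot be told apart in this design. The part of these cell differences in the member results was not tested, and in bulk RNA a change in cell numbers and a change in RNA per cell cannot be told apart.

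Dusp5, Spry1 and Dusp4 stood about 4.5-fold to 5.2-fold higher in SLC43A2 sgRNA libraries, and Dusp2 1.60-fold higher. Dusp1, Dusp6, Dusp10, Spred1 and Spred2 did not pass the test, and Spry2 was too low to be tested. Thus 4 of the 9 tested members rose and 0 fell (limma, Benjamini-Hochberg adjusted p under 0.05), beside 22.8% of all tested genes that rose and 22.2% that fell. Counted in either direction, the 4 of 9 members called were near the 45.1% of all tested genes called. At an unadjusted p under 0.05 the counts were the same, 4 higher and 0 lower. The median log2 difference of the 9 was 0.51, against 0.03 over all tested genes. All 9 averaged at least 1 TPM in both groups. By range, 5 of the 10 members were higher in every SLC43A2 sgRNA library than in every Mock sgRNA library and 1, Spry2, was lower in every one, beside 57.0% of tested genes without overlap and 28.7% without overlap and higher. For each of these 6 the exact two-sided permutation p was 0.1, the smallest that 3 libraries against 3 can give.

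**Figure D1:**
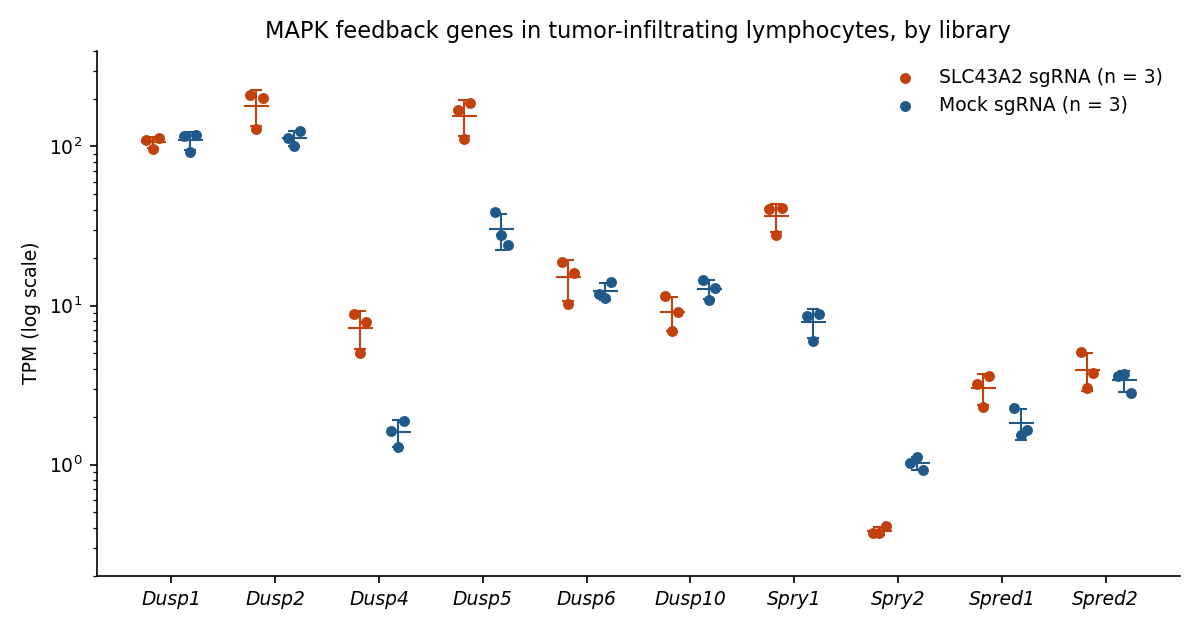
TPM (log axis) of the 10 members in each library; points are libraries, the wide tick is the mean and the bar the SD of 3 libraries, with SLC43A2 sgRNA left of Mock sgRNA. Dusp4, Dusp5 and Spry1 separate most widely, while the Dusp1 points of both groups lie between 92.5 and 118.8 TPM.

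The nuclear phosphatases Dusp5, Dusp4, Dusp2 and Dusp1 are the members classed as inducible by mitogens and stress. Dusp5, which is selective for ERK and holds it in the nucleus, stood at 170.5, 110.8 and 188.2 TPM in replicates 1, 2 and 3 of SLC43A2 sgRNA, and 38.7, 27.6 and 24.1 TPM in those of Mock sgRNA. The lowest SLC43A2 sgRNA library was thus far above the highest Mock sgRNA library. The means were 156.5 ± 40.6 TPM in SLC43A2 sgRNA and 30.1 ± 7.67 TPM in Mock sgRNA (SD, n = 3 each), a 5.20-fold ratio. On the log2(TPM + 1) scale used for all tests, the difference was 2.33 (SE 0.25, limma adjusted p = 0.00075), which ranked 79 among 13759 genes by size of rise. In GENCODE M21 (GRCm38), Dusp5 (ENSMUSG00000034765) lies on the plus strand at chr19:53529109-53542431. There 547 of its 2473 exon bases (22.1%) overlap exons of a gene on the opposite strand, listed as Gm50394 in the expression table. That gene averaged 1.53 TPM in SLC43A2 sgRNA and 3.28 TPM in Mock sgRNA, so it was far below Dusp5. Whether the counting used strand is not stated, so reads of the shared bases cannot be assigned to either gene.

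Dusp4, a nuclear phosphatase of ERK and JNK, was the least abundant member to rise. Its 3 SLC43A2 sgRNA libraries held 8.79, 5.05 and 7.89 TPM, and its 3 Mock sgRNA libraries 1.62, 1.28 and 1.89 TPM. The groups were well apart, with means of 7.24 ± 1.95 TPM in SLC43A2 sgRNA and 1.60 ± 0.306 TPM in Mock sgRNA (SD, n = 3 each). The log2 difference was 1.64 (SE 0.23, limma adjusted p = 0.0020). At these low levels the log2(TPM + 1) scale understates the change, which was 4.54-fold as a ratio of mean TPM. The gene (ENSMUSG00000031530) is at chr8:34807297-34819894, plus strand, and shares no exon base with another gene of that annotation.

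Dusp2, a nuclear phosphatase first found in activated T cells, was the most abundant member in every SLC43A2 sgRNA library. It stood at 212.0, 128.1 and 202.8 TPM in SLC43A2 sgRNA and at 113.1, 100.7 and 125.8 TPM in Mock sgRNA. Replicate 2 of SLC43A2 sgRNA lay just above the highest Mock sgRNA library, and the other 2 lay well above it. The means were 181.0 ± 46.0 TPM in SLC43A2 sgRNA and 113.2 ± 12.6 TPM in Mock sgRNA (SD, n = 3 each), with a log2 difference of 0.64 (SE 0.21, limma adjusted p = 0.044). Dusp2 (ENSMUSG00000027368) is at chr2:127336159-127338376, plus strand. The call was lost without SLC43A2 sgRNA replicate 1 or 3 (adjusted p = 0.143 and 0.148) and without Mock sgRNA replicate 1, 2 or 3 (adjusted p = 0.12, 0.136 and 0.0646), and held without SLC43A2 sgRNA replicate 2 (adjusted p = 0.00661). Quantile normalization (adjusted p = 0.129), no filter on low genes (0.0902), rescaling after taking out hemoglobin, mitochondrial and antigen receptor genes (0.0768) and a variance prior without trend (0.0595) also ended it. Without SLC43A2 sgRNA replicate 1 or 3, or without any Mock sgRNA replicate, the count of members that rose was 3.

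Dusp1, a nuclear phosphatase best known for acting on p38 and JNK and an early gene of stress and glucocorticoid responses, had nearly the same level in both groups. It stood at 109.1, 96.2 and 113.7 TPM in SLC43A2 sgRNA and 116.3, 92.5 and 118.8 TPM in Mock sgRNA, and the ranges overlapped almost fully. The log2 difference was -0.03, with a 95% interval from -0.37 to 0.31 (limma adjusted p = 0.867). The interval leaves out a change of the size seen for Dusp5, Spry1 or Dusp4. Its sign was not fixed: scaled to T cell receptor and CD3 transcripts the difference was 0.25 (adjusted p = 0.189), while the median of all genes was 0.27 on that scale.

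Dusp6, the phosphatase of cytoplasmic ERK, and Dusp10, which acts on JNK and p38, were far less abundant than Dusp1 and Dusp2. Dusp6 stood at 18.6, 10.3 and 16.1 TPM in SLC43A2 sgRNA and 11.8, 11.2 and 14.0 TPM in Mock sgRNA. SLC43A2 sgRNA replicate 2 was the lowest library of all 6 and the other 2 were the highest, so the groups overlapped. The log2 difference was 0.23 (95% interval -0.31 to 0.78, limma adjusted p = 0.427). Dusp10 stood at 11.4, 6.92 and 9.05 TPM in SLC43A2 sgRNA and at 14.4, 10.8 and 13.0 TPM in Mock sgRNA. Only 1 SLC43A2 sgRNA library reached the range of the Mock sgRNA libraries. The log2 difference was -0.45 (95% interval -0.94 to 0.03), and it did not pass (limma adjusted p = 0.111).

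**Figure D2:**
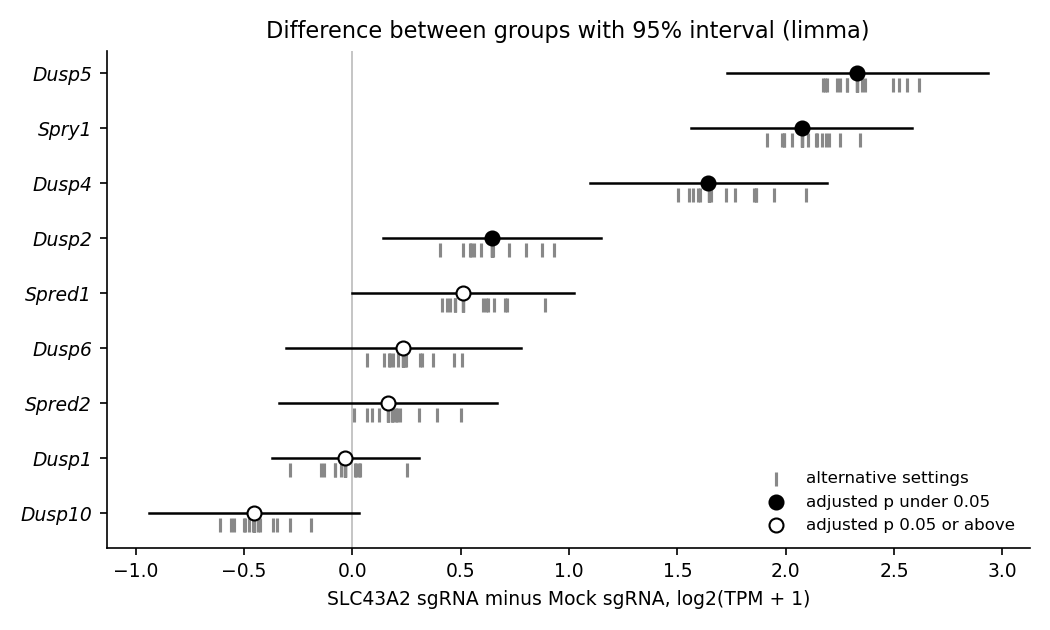
Log2(TPM + 1) difference, SLC43A2 sgRNA minus Mock sgRNA, for the 9 tested members, with the 95% interval from limma; filled circles have an adjusted p under 0.05 and grey ticks are the values under the alternative settings. The intervals of Dusp5, Spry1 and Dusp4 start at 1.10 or above, and those of Dusp10, Dusp1, Spred2, Dusp6 and Spred1 include 0.

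The make-up of the DUSP transcripts also differed between the groups, a measure within a library that does not depend on how libraries are scaled. The shares come from the same TPM values as the levels above, so a rise of any member lowers the shares of the others. A lower share, as for Dusp1 and Dusp6, is therefore not a fall in level. Dusp5 made up 32.7% ± 2.06 of the summed TPM of the 6 DUSP members in SLC43A2 sgRNA and 10.8% ± 2.54 in Mock sgRNA (SD, n = 3 each). Dusp1 made up 22.9% ± 3.52 in SLC43A2 sgRNA and 39.1% ± 1.03 in Mock sgRNA. Neither share overlapped between the groups. Dusp2 kept a similar share, at 37.8% ± 2.06 in SLC43A2 sgRNA and 40.6% ± 2.11 in Mock sgRNA, with overlapping ranges. The shares of Dusp6 (3.13% and 4.41%) and Dusp10 (1.92% and 4.55%) were lower and that of Dusp4 (1.51% and 0.569%) higher in SLC43A2 sgRNA than in Mock sgRNA. The 6 together summed to 475.2 ± 102.1 TPM in SLC43A2 sgRNA and 279.2 ± 30.4 TPM in Mock sgRNA.

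**Figure D3:**
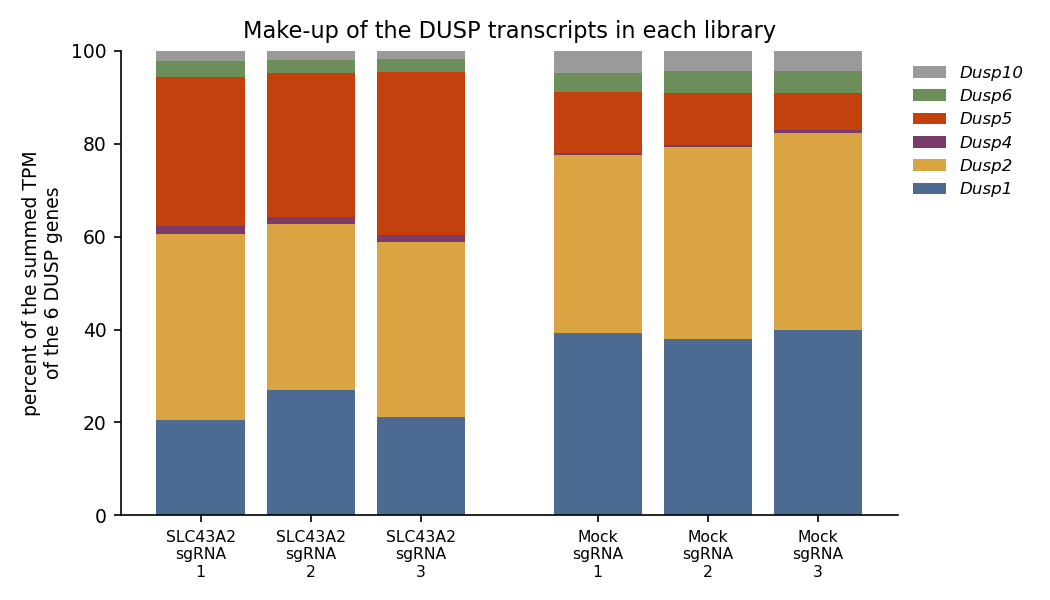
Percent of the summed TPM of the 6 DUSP members taken by each of them, 1 bar per library. The Dusp5 block takes 31.0 to 35.0% in the SLC43A2 sgRNA libraries and 8.08 to 13.1% in the Mock sgRNA libraries.

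The order of the members by level was the same in all 3 SLC43A2 sgRNA libraries: Dusp2, Dusp5, Dusp1, Spry1, Dusp6, Dusp10, Dusp4, Spred2, Spred1 and Spry2, from high to low. In the Mock sgRNA libraries Dusp1 and Dusp2 changed places between replicates, followed by Dusp5, then Dusp6 and Dusp10 in either order, Spry1, Spred2, Spred1 and Dusp4 in either order, and Spry2. The neighbours Dusp2 and Dusp5 in SLC43A2 sgRNA, and Dusp1 and Dusp2 or Dusp6 and Dusp10 in Mock sgRNA, had means that differed by less than their SD. The ratio of Dusp5 to Dusp1 within a library was 1.15 to 1.66 in SLC43A2 sgRNA and 0.202 to 0.333 in Mock sgRNA, so Dusp5 was the higher of the pair in each SLC43A2 sgRNA library and the lower in each Mock sgRNA library. The ratio of Dusp4 to Dusp6 was 0.472 to 0.492 in SLC43A2 sgRNA and 0.115 to 0.138 in Mock sgRNA. These ratios were chosen after the values were seen.

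Sprouty genes, which block Ras activation downstream of growth factor and antigen receptors, lay on opposite sides of 0, although only Spry1 was tested. Spry1, induced in T cells by receptor stimulation, stood at 40.2, 27.8 and 40.9 TPM in SLC43A2 sgRNA and at 8.63, 5.98 and 8.90 TPM in Mock sgRNA. Each SLC43A2 sgRNA library was well above the highest Mock sgRNA library. The means were 36.3 ± 7.34 TPM in SLC43A2 sgRNA and 7.84 ± 1.61 TPM in Mock sgRNA (SD, n = 3 each), a 4.63-fold ratio, and the log2 difference was 2.07 (SE 0.22, limma adjusted p = 0.00062). Spry1 (ENSMUSG00000037211) is at chr3:37639947-37644598, plus strand. Of its 2906 exon bases, 710 (24.4%) overlap Gm42922 on the opposite strand, which was at most 0.16 TPM in any library. Spry2 stood at 0.37, 0.37 and 0.41 TPM in SLC43A2 sgRNA and at 1.02, 1.12 and 0.93 TPM in Mock sgRNA. Its 2 groups did not overlap, with means of 0.383 ± 0.0231 TPM in SLC43A2 sgRNA and 1.02 ± 0.0950 TPM in Mock sgRNA. It averaged 0.703 TPM and stayed below the level for testing. With no filter on low values its log2 difference was -0.55 (limma adjusted p = 0.027). Because TPM keeps no read counts, the counting error of such a low gene is unknown.

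Spred proteins carry an EVH1 domain and hold Ras inactive at the membrane, and Spred1 does so by recruiting neurofibromin, the product of Nf1. Spred1 stood at 3.22, 2.29 and 3.59 TPM in SLC43A2 sgRNA and 2.28, 1.53 and 1.65 TPM in Mock sgRNA. The groups touched without overlapping, at 2.29 and 2.28 TPM. The log2 difference was 0.51 (95% interval -0.00074 to 1.02, limma adjusted p = 0.0929). Spred2 stood at 5.09, 3.01 and 3.77 TPM in SLC43A2 sgRNA and 3.62, 3.71 and 2.80 TPM in Mock sgRNA, with overlapping groups. The log2 difference was 0.16 (95% interval -0.34 to 0.67, limma adjusted p = 0.549). Nf1 stood at 1.56, 2.28 and 1.46 TPM in SLC43A2 sgRNA and 1.66, 1.48 and 0.59 TPM in Mock sgRNA (log2 difference 0.33, limma adjusted p = 0.360).

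Replicate 2 was the low library for many genes in both groups. Of the 10 members, 10 were at their lowest, Spry2 in a tie, in SLC43A2 sgRNA replicate 2, as were 56.6% of the 13759 tested genes. In Mock sgRNA replicate 2 the count was 7 of 10 members, all but Dusp5, Spry2 and Spred2, beside 52.2% of tested genes. These comparisons were added after the values were seen. For Dusp2, Dusp4, Dusp5, Dusp6, Dusp10, Spry1, Spred1 and Spred2 the TPM in SLC43A2 sgRNA replicate 2 was 0.591 to 0.687 times the mean of replicates 1 and 3. The median over the 9340 genes of at least 5 TPM was 0.886, and 18.5% of them were at 0.7 or less. Dusp1 (0.864) and Spry2 (0.949) were closer to the other replicates. In the Mock sgRNA group the same ratio ran over the members from 0.682 for Spry1 to 1.16 for Spred2, with a median over genes of 0.874. Without SLC43A2 sgRNA replicate 2 the log2 differences were 2.56 for Dusp5, 2.25 for Spry1, 1.85 for Dusp4 and 0.87 for Dusp2, and no further member passed.

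The T cell receptor and CD3 transcripts used for scaling summed to 6563 to 7169 TPM in SLC43A2 sgRNA and 7936 to 8758 TPM in Mock sgRNA. Of these genes Cd3g and Trbc2 fell, while Trac, Trbc1, Cd3d and Cd3e did not pass. Scaled to that sum, the median log2 difference of all tested genes was 0.27. On that scale the 4 members that rose stood further from 0, at 2.61 for Dusp5, 2.34 for Spry1, 1.86 for Dusp4 and 0.93 for Dusp2, and Spred1 passed as well (0.71, limma adjusted p = 0.042). With quantile normalization that median was 0.13, and Dusp5 stood at 2.17, Spry1 at 2.10, Dusp4 at 1.95 and Dusp2 at 0.40.

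By likeness of pattern over the 6 libraries, the genes nearest to Dusp5, the member with the largest rise, were Ywhae, which encodes a 14-3-3 protein, Mtfr1, a mitochondrial fission regulator, and Dgat1, which makes triglyceride. Each had a Pearson coefficient of 0.998 on the log2 scale, among 6364 genes of at least 10 TPM. They averaged 238.2, 33.5 and 59.9 TPM in SLC43A2 sgRNA and 122.1, 15.6 and 20.8 TPM in Mock sgRNA. Since 497 of these genes had a coefficient above 0.95 and the libraries fall into 2 groups, this is a description with no test.

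Across 5 lists of other pathway genes, 67 of 79 genes were tested, and 21 rose and 16 fell. Of all tested genes, 22.8% rose and 22.2% fell, so the number that fell, and both numbers in the Ras-ERK cascade, were near that background. So were the numbers that rose among the other DUSP genes and the other brakes on Ras. These numbers say nothing particular about the pathway. Whether the 21 that rose exceed the background was not tested. The number that fell was 9 without SLC43A2 sgRNA replicate 1, 8 without SLC43A2 sgRNA replicate 3 and 10 without Mock sgRNA replicate 1. Among the other DUSP genes, 2 of 9 tested of 13 listed rose and 3 fell (median log2 difference 0.14), and 1 fell without SLC43A2 sgRNA replicate 3. The atypical phosphatases Dusp22, which restrains the kinase Lck in T cells, and Dusp14 rose to 33.2 ± 1.09 and 11.7 ± 0.375 TPM in SLC43A2 sgRNA, against 10.4 ± 2.72 and 3.41 ± 0.945 TPM in Mock sgRNA (log2 differences 1.61 and 1.55, limma adjusted p = 0.0013 each). Dusp11, an RNA phosphatase, fell to 43.4 ± 2.83 TPM in SLC43A2 sgRNA, against 81.8 ± 11.7 TPM in Mock sgRNA. Dusp23 fell to 2.62 ± 0.593 TPM in SLC43A2 sgRNA, against 5.44 ± 0.763 TPM in Mock sgRNA, and did not pass without SLC43A2 sgRNA replicate 3 (limma adjusted p = 0.0575). Dusp3, Dusp8, Dusp9 and Dusp18 were below the level for testing, as were Spry4, Spred3 and Rasal2; Spry3 was not found by name.

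Among the other brakes on Ras, 2 of 8 tested of 12 listed rose and 3 fell (median log2 difference -0.25), and 1 rose without SLC43A2 sgRNA replicate 1 or 3 or any Mock sgRNA replicate. The Ras GTPase-activating genes Rasa3 and Rasal3 fell to 12.1 ± 0.911 and 44.3 ± 3.37 TPM in SLC43A2 sgRNA, against 48.6 ± 7.36 and 149.8 ± 25.5 TPM in Mock sgRNA (log2 differences -1.91 and -1.72, limma adjusted p = 0.00022 and 0.00038). Lztr1, which targets Ras proteins for degradation, rose by 0.64 on the log2 scale (57.8 ± 4.19 TPM in SLC43A2 sgRNA and 36.7 ± 2.05 TPM in Mock sgRNA). Rasa2 rose by 0.53, but leaving out SLC43A2 sgRNA replicate 1 or 3 or any Mock sgRNA replicate ended its call (limma adjusted p = 0.0605 to 0.129). No filter on low genes (0.0571) and rescaling without antigen receptor, mitochondrial and hemoglobin genes (0.0677) also ended it.

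In the Ras-ERK cascade 4 of 19 tested genes rose and 4 fell (median log2 difference 0.09). The number that fell was 1 without any one of the SLC43A2 sgRNA replicates and 2 without Mock sgRNA replicate 1 or 2. Map2k1, which encodes the kinase MEK that phosphorylates ERK, stood at 61.9 ± 11.7 TPM in SLC43A2 sgRNA and 28.4 ± 3.72 TPM in Mock sgRNA (log2 difference 1.09, limma adjusted p = 0.0040). Nras rose by 0.66. Rasgrp1, which activates Ras downstream of the T cell receptor, stood at 18.8 ± 2.27 TPM in SLC43A2 sgRNA and 60.6 ± 6.12 TPM in Mock sgRNA (log2 difference -1.64, limma adjusted p = 0.00034). Mapk3, which encodes an ERK kinase, did not pass (log2 difference 0.09, limma adjusted p = 0.701).

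In the JNK and p38 cascades 6 of 14 tested of 16 listed rose and 4 fell (median log2 difference 0.10). Over all tested genes 22.8% rose and 22.2% fell. Mapkapk3, a kinase activated by p38, and Map2k3, which activates p38, stood at 86.6 ± 23.6 and 82.8 ± 18.7 TPM in SLC43A2 sgRNA and 21.99 ± 3.93 and 26.2 ± 10.9 TPM in Mock sgRNA (log2 differences 1.91 and 1.69, limma adjusted p = 0.0014 and 0.0082). Map3k1 and Map2k6, another activator of p38, changed by -1.33 and -1.22 (limma adjusted p = 0.0063 and 0.00275).

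Among ERK-responsive transcription factors and targets, 7 of 17 tested of 19 listed rose and 2 fell (median log2 difference 0.16). Over all tested genes 22.8% rose and 22.2% fell. The number that fell was 0 without SLC43A2 sgRNA replicate 1 or 3 or Mock sgRNA replicate 1, and 1 without Mock sgRNA replicate 2. The AP-1 gene Fosl1 stood at 15.5, 16.4 and 16.4 TPM in SLC43A2 sgRNA and 2.92, 2.28 and 4.87 TPM in Mock sgRNA (log2 difference 2.02, limma adjusted p = 0.00087). The orphan receptor gene Nr4a1, an early gene of T cell receptor signaling, stood at 79.1, 60.7 and 84.3 TPM in SLC43A2 sgRNA and 28.0, 19.7 and 14.8 TPM in Mock sgRNA (log2 difference 1.82, limma adjusted p = 0.0017). Both pairs of groups were well apart. Egr3 and Fosb changed by -0.81 and -0.68. Both calls were lost without SLC43A2 sgRNA replicate 1 or 3 or Mock sgRNA replicate 1 or 2 (limma adjusted p = 0.0557 to 0.0872). They were also lost with quantile normalization (0.158 and 0.148), T cell receptor and CD3 scaling (0.073 and 0.0958) and no filter on low genes (0.0745 and 0.0607). The Egr3 call was lost with the replicate number as a block as well (limma adjusted p = 0.0573). Of the 17 tested, 8 passed in neither direction, among them Egr1, Fos and Junb (log2 differences 0.06, -0.35 and -0.10, limma adjusted p = 0.845, 0.108 and 0.583). The genes that rose beside Fosl1 and Nr4a1 were Nr4a3, Fosl2, Ier3, Phlda1 and Mcl1 (limma adjusted p = 0.0027, 0.0012, 0.0041, 0.0039 and 0.045). Egr1, Fos and Junb and the genes named after them were chosen after their values were seen.

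**Figure D4:**
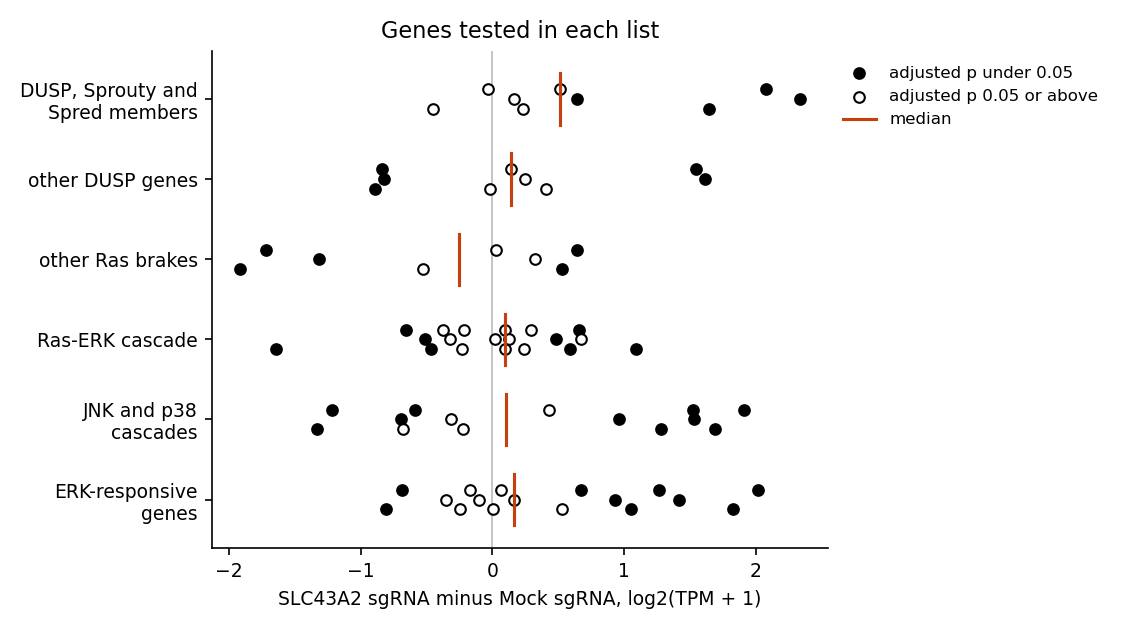
Log2(TPM + 1) difference, SLC43A2 sgRNA minus Mock sgRNA, of every tested gene in the member list and the 5 pathway lists; filled circles have an adjusted p under 0.05 and the vertical bar is the median. Medians of the 5 pathway lists lie between -0.25 and 0.16, with called genes on both sides of 0 in each of them.

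Several members also respond to tissue dissociation, so genes of that response were read beside them. Of 13 tested of 14 listed dissociation genes, 4 rose and 2 fell (median log2 difference 0.23). Over all tested genes 22.8% rose, 22.2% fell and 45.1% were called in either direction. Counted in either direction, the dissociation genes called were near that background. The number that rose was 2 without SLC43A2 sgRNA replicate 1 or 3 or Mock sgRNA replicate 2, and 1 fell without Mock sgRNA replicate 1. The list summed to 1911 to 2379 TPM in SLC43A2 sgRNA and 1648 to 2095 TPM in Mock sgRNA. The stress factor gene Atf3 stood at 75.5 ± 9.58 TPM in SLC43A2 sgRNA and 12.9 ± 1.31 TPM in Mock sgRNA (log2 difference 2.45, limma adjusted p = 6.8e-05). Nfkbia, the NF-kB inhibitor, rose by 1.02. The heat shock gene Hspa1b and the antiproliferative gene Btg2 changed by -0.83 and -0.70, and the Btg2 call was lost without Mock sgRNA replicate 1 (limma adjusted p = 0.0638) and with scaling to T cell receptor and CD3 transcripts (0.113). The Hspa1b call was lost with quantile normalization (limma adjusted p = 0.0776). The part of dissociation in the member differences was not tested.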

How the data were processed

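RNA was sequenced from 6 libraries of tumor-infiltrating lymphocytes, 3 per group, grouped by sample title. The values are TPM that the authors deposited for 57180 genes, rounded to 2 decimals and on the per-million scale; read depth and counting error are therefore unknown, and no counting interval is given. Bowtie 0.12.2 and mm8 are named, without their roles, per the submitters' processing notes. The counting program and the annotation are not stated there. Per the labels' protocols, libraries came from a TruSeq RNA kit; that text speaks of retinas and may not describe these samples. Of the gene identifiers, 90.7% are in GENCODE M21, from which coordinates and exon overlaps were taken. Promoters are from RefSeq (GRCm38.p6).

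Group differences come from limma 3.58.1 under R 4.3.3 (two-sided, variance trend) on log2(TPM + 1) over the 13759 genes with a mean of at least 1 TPM, with Benjamini-Hochberg adjustment over all of them and a threshold of 0.05. The fit was tested on simulated data. The members and lists were chosen with earlier results of these data known. Named genes were the members, the targeted gene, and for each pathway or stress list the 2 genes highest and the 2 lowest by log2 difference that passed without overlap, plus the most abundant marker of each cell type and the 3 genes most like the top member. Some genes that met this rule are not reported here. Nf1, Mapk3, Egr1, Fos, Junb, Nr4a3, Fosl2, Ier3, Phlda1, Mcl1, Eif2s3y, Xist and the further cell type markers named were added after their values were seen. So were the within-library ratios and the replicate 2 comparison, and 2 of the 12 promoter patterns tried were dropped or changed after their matches were seen. Nothing says that the libraries came from separate animals, so p-values measure only the spread between libraries. The 18 alternatives changed the pseudocount (0.1 and 0.5), the filter, the scaling, the variance prior or the weights, blocked on replicate number, or left out 1 library.

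Markers were listed for 11 cell types. Their most abundant genes averaged, in SLC43A2 sgRNA and Mock sgRNA, 2454 and 3098 TPM (Trbc2, T cells), 6.74 and 151.5 (Cd79a, B cells), 587.4 and 18539 (Igkc, plasma cells), 26.9 and 346.6 (Lyz2, macrophages), 48.6 and 234.9 (S100a8, neutrophils), 75.5 and 206.1 (Klrd1, NK cells), 1.79 and 1.09 (Zbtb46, dendritic cells), 17.7 and 303.0 (Hbb-bs, erythroid cells), 1.86 and 21.8 (Trf, hepatocytes and hepatoma), 6.01 and 17.0 (Pecam1, endothelium) and 0.0233 and 0.0300 (Pdgfrb, fibroblasts). Zbtb46 did not pass (limma adjusted p = 0.204). The other dendritic cell markers tested, Cd209a and Siglech, were lower, at 0.0167 and 0.33 TPM in SLC43A2 sgRNA against 2.62 and 1.78 TPM in Mock sgRNA. Alb, Ttr and Serpina1a were listed at 0 in all 6 libraries.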

Additional observations from a re-analysis of the deposited data

How the results depend on the processing

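Dusp5 (log2 difference 2.17 to 2.61), Spry1 (1.91 to 2.34) and Dusp4 (1.505 to 2.09) kept their direction and an adjusted p under 0.05 in each of the 18 alternatives for Dusp5 and Spry1 and the 17 that test Dusp4 (highest limma adjusted p = 0.0080, 0.0071 and 0.0157). Dusp2 kept its direction in all 18 and its call in 9 (0.40 to 0.93). Leaving out a library gave 3 to 4 members that rose and 0 that fell. Of the 5 other tested members, Dusp10 passed as lower with median-of-ratios scaling (adjusted p = 0.0339) and with the replicate number as a block (0.0394), so that 1 member fell in each, and Spry2 was the 1 that fell with no filter. Spred1 passed with quantile normalization (0.0073), T cell receptor and CD3 scaling (0.042) and array weights (0.0316). Dusp1 changed sign with T cell receptor and CD3 scaling (0.25) and array weights (0.013), and ran from -0.147 to 0.037 when a library was left out. Deviations of same-numbered libraries correlated over genes at 0.001, 0.061 and -0.031, and those of the other pairs at -0.055 to 0.058. Such a correlation does not see a shift common to all genes. Whether the replicate numbers pair the libraries is therefore not settled. With that replicate block 6357 genes passed, against 6199 without it. Leaving out a library gave 4101 to 5904 genes, 1854 to 3183 higher and 2247 to 2868 lower. The number higher, 3139 with all libraries, was 1936 without SLC43A2 sgRNA replicate 1 and 1854 without SLC43A2 sgRNA replicate 3. Genes of at least 5 TPM gave 1882 lower. In the pathway lists, 16 genes fell, against 9 among genes of at least 5 TPM, 8 with T cell receptor and CD3 scaling and 8 to 13 with a library left out; the first tests fewer genes, and the cause of the other changes was not tested. Of 24 pathway and stress genes that met the rule for naming, 17 kept their call in every alternative that tests them and 0 changed sign. Depth is unknown, so no member has a counting error.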
